A study of Mus musculus with 5 samples.

Results

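The cytosolic ribosomal protein genes encode the proteins of the ribosome that works outside mitochondria. Members were chosen by gene symbol: Rpl or Rps followed by a number. A letter a, x, y or l and a further number could follow. Rplp0, Rplp1, Rplp2 and Rpsa were added, and Rps6k kinases and pseudogenes were left out. The symbol Rpl36al, with a and l together, fell outside this rule. The rule gave 83 of the 32285 genes in the deposited matrix, of which 51 belong to the large and 32 to the small subunit. The samples were isolated total hepatocytes of male C57BL/6J mice (genotype WT) on normal chow, lab diet #5053. Single cells were sequenced from transcript 3′ ends in droplets with 10x Genomics v3 chemistry. All groups shared a training of 3 days with 16 h of fasting and 8 h of feeding, and chow with water holding 20% sucrose on the test day. The fed library (0 h) was taken at 13:00 after 4 h of feeding. Food and sucrose were then withdrawn for 4, 8, 16 or 24 h, which placed sampling at 17:00, 21:00, 5:00 and 13:00. Only the 24 h library therefore shares the clock hour of the fed one, and in the other 3 the length of food withdrawal and the hour of day cannot be told apart.

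Each time point was 1 library, so no difference between times has a replicate check, and no p-value is given. Intervals cover counting error only. How many animals each one pools is not given in the sources used here, and the libraries were prepared separately, so library and time cannot be told apart either. Every library held 10000 barcodes. Hepatocytes were barcodes with at least 1000 UMIs (unique molecular identifiers, each standing for 1 captured transcript), at least 500 genes and 2 to 30% mitochondrial UMIs. This left 7826, 4567, 2716, 9125 and 4576 cells at 0, 4, 8, 16 and 24 h, with between 33521626 and 45532684 non-mitochondrial UMIs per library. Median UMIs per cell were 5408, 12097, 15005, 4391 and 8979, and median mitochondrial shares were 11.9, 19.1, 9.79, 13.7 and 16.3%. Pairs of libraries shared 1 to 17 barcodes among these cells. The 7 hepatocyte markers together gave 94458 to 121438 counts per 1000000 non-mitochondrial UMIs (CPM) per library. Markers of endothelial cells gave 85.9 to 150 CPM, and those of Kupffer cells, stellate cells, cholangiocytes, red cells, lymphocytes and neutrophils gave at most 78.2 CPM each. In the 8 h library 6675 of the barcodes were under the UMI or gene minimum, against 0 to 637 in the others.

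As background, a ribosome joins a small subunit, which reads the mRNA, to a large subunit, which forms the peptide bond, and cells make the proteins of both in matched amounts. Most of these mRNAs carry a 5′ terminal oligopyrimidine (TOP) tract, an unbroken run of C and T letters that begins with C at the transcript start. Through it mTORC1, a nutrient-sensing kinase complex, controls their translation and, with the RNA-binding protein Larp1, their stability. In liver, feeding and fasting are known to change ribosome number and the output of this pathway.

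Of the 83 members, 63 matched a RefSeq promoter by symbol, with 75 annotated starts in all. The windows printed below hold the 25 bases before and the 25 bases from the annotated start (the base in position 26 is the first transcribed base of the model), on the gene's own strand, in build GRCm38.p6. Capitals mark the longest run of at least 6 C or T letters that begins with C, and the first of them where 2 are equally long. The windows of Rps18, Rps10, Rps6, Rpl35 and Rpl15 show the run lying across the start, and those of Rps27, Rps27l, Rpl7l1 and Rpl22l1 show a gene beside its paralog (Rps27 and Rps27l) and paralogs of Rpl7 and Rpl22. They were chosen after the values were seen.
Rps18 (chr17:33955641-33955690, minus): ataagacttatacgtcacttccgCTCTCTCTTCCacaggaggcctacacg
Rps10 (chr17:27635220-27635269, minus): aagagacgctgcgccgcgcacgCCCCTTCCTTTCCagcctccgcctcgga
Rps6 (chr4:86857343-86857392, minus): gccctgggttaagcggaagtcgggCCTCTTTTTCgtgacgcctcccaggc
Rpl35 (chr2:39005107-39005156, minus): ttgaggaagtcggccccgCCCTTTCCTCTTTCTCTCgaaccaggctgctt
Rpl15 (chr14:18270962-18271011, minus): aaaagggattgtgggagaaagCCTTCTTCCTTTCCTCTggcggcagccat
Rps27 (chr3:90213624-90213673, minus): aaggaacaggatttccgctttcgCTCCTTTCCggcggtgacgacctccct
Rps27l (chr9:66946061-66946110, plus): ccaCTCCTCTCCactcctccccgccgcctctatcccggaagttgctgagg
Rpl7l1 (chr17:46782632-46782681, minus): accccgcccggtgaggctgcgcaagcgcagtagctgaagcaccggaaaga
Rpl22l1 (chr3:28805483-28805532, plus): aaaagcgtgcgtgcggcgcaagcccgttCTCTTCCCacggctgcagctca

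In Rps18, Rps10, Rps6, Rpl35, Rpl15 and Rps27 the run began 1 to 7 bases before the annotated start and crossed it. It was 10 letters long in Rps6 and 18 in Rpl35. Rps27l has 2 annotated starts, and the window printed was picked by the longest run. In it the marked run began 22 bases before the start, and a second run of the same length followed it and also ended before the start. In Rpl22l1 the run began at transcribed base 4, and the Rpl7l1 window held no such run. Over all 75 member windows 45 (60%) held a run on the gene's strand, against 35% of the 32851 windows of all RefSeq promoters. On the opposite strand the shares were 21.3% of member windows and 38.7% of all windows. The letters CGGAAG, searched on both strands over 300 bases (250 before and 50 after the start), lay in 60% of member promoters and 16.9% of all promoters. A match describes the letters in the window and not a bound site.

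Ribosomal protein transcripts took a larger part of the hepatocyte transcriptome in the fasted libraries than in the fed one, with the smallest difference at 16 h. They made up 3.65% (95% interval 3.65 to 3.66) of non-mitochondrial UMIs in the fed library. At 4, 8, 16 and 24 h the share was 8.90, 8.18, 4.19 and 6.87%. The fed and 16 h libraries were thus low and the 4, 8 and 24 h libraries high. Relative to fed the summed share was 2.44, 2.24, 1.15 and 1.88-fold at these times, or 1.29, 1.16, 0.20 and 0.91 on the log2 scale. From 4 to 8 h the log2 step was -0.12, from 8 to 16 h -0.96 and from 16 to 24 h 0.71. The sign of the step from 4 to 8 h changed with the processing. It was 0.040 over all UMIs and 0.30 in cells of 4000 to 8000 UMIs, where the step from 16 to 24 h was 0.0046. A share can move with these transcripts or with the rest of the RNA: in such sums fewer transcripts per cell and more of other RNA cannot be told apart.

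The 16 h value is the weakest of the 4. Averaged over cells instead of summed, the 16 h log2 ratio was -0.02, and with no lower mitochondrial limit it was -0.08, so that its sign changed with the processing. The shares also moved with depth: the fed and 16 h libraries, which had the lowest shares, had the lowest median UMIs per cell. Windows of non-mitochondrial UMIs were compared after the data were seen. Among cells of 1000 to 2000 UMIs the shares were 6.89, 10.8, 7.81, 2.66 and 7.60% at 0, 4, 8, 16 and 24 h. There only the 4 h library was past 1.5-fold above fed. The 8 and 24 h log2 ratios were 0.18 and 0.14, and the 16 h one was -1.37. Among cells of 2000 to 4000 UMIs the shares were 2.57, 7.08, 6.82, 3.75 and 8.45%, with the fed library lowest. Among cells of 4000 to 8000 UMIs they were 3.47, 5.71, 7.05, 4.60 and 4.61%. In that window the 24 h library was level with the 16 h one, and the 24 h log2 ratio to fed was 0.41. Among cells of 8000 to 16000 UMIs the shares were 3.99, 8.09, 7.93 and 6.65% at 0, 4, 8 and 24 h, with only 23 cells at 16 h. The part of depth in the differences between libraries was not tested further.

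**Figure D1:**
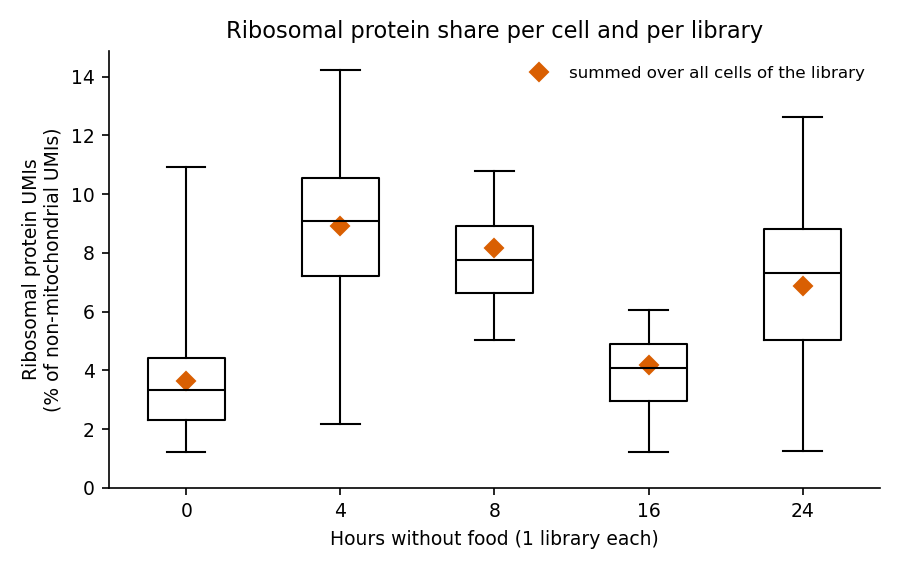
Share of non-mitochondrial UMIs from the 83 ribosomal protein genes (y axis, percent) against hours without food (x axis, 1 library each, evenly spaced). Boxes span the 25th to 75th percentile of cells with the median as a line, whiskers reach the 5th and 95th percentile of cells and not an error over animals, and diamonds give the summed share. The fed and 16 h boxes lie lowest, at medians of 3.34 and 4.08%, and the 4 h box highest, at 9.08%.

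The distribution over cells showed the same order as the sums. Median shares per cell were 3.34, 9.08, 7.75, 4.08 and 7.32% at 0, 4, 8, 16 and 24 h. The middle 50% of fed cells (2.30 to 4.43%) did not overlap that of 4 h cells (7.21 to 10.6%) or 8 h cells (6.62 to 8.91%), but it did overlap that of 16 h cells (2.95 to 4.90%). At 24 h the middle 50% ran from 5.03 to 8.81%, and the 5th percentile was 1.27%, close to the 1.22% of the fed library. Cells with under 2.5% ribosomal protein UMIs made up 29.8% of the fed library and 6.09, 0.110, 18.8 and 14.7% of the 4, 8, 16 and 24 h libraries. The 8 h library almost lacked such cells, and the 24 h library held both a low and a high range.

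Within a library the ribosomal protein share was lower in cells with a higher mitochondrial share in 4 of 5 cases. Spearman's rho between the 2 shares over cells was -0.35, -0.63, 0.11, -0.26 and -0.76 from 0 to 24 h, given as a description since cells of 1 library share its preparation. With total UMIs per cell rho was 0.06, -0.03, 0.42, 0.51 and -0.16. In fed cells of 2 to 5% mitochondrial UMIs the median ribosomal protein share was 11.2%, and in those of 10 to 15% it was 3.26%. At 24 h the corresponding medians were 12.2 and 7.89%, and in cells of 20 to 30% the median was 2.10%. Alb, a hepatocyte marker, took 2.31% in fed cells of 2 to 5% and 7.80% in those of 10 to 15%. Their median UMIs were 1669 and 6668.5. Alb took 2.01 and 6.75% in these windows at 24 h, but 4.89 and 4.88% at 8 h. In fed barcodes under 1% mitochondrial UMIs Alb took 1.98%, at a median of 1663 UMIs. What the cells of 2 to 5% hold was not tested. Compared at 10 to 15% mitochondrial UMIs in all libraries, the summed shares were 3.45, 9.75, 8.32, 4.34 and 7.84%. In that window the fed and 16 h libraries were low and the 4, 8 and 24 h libraries high, with a 24 h log2 ratio to fed of 1.18. The same libraries were low and high at 5 to 10 and at 15 to 20%. At 2 to 5% the shares were 9.89, 12.8, 7.98, 7.24 and 12.0%, so that the fed library was above the 8 and 16 h ones. At 20 to 30% they were 2.03, 7.92, 4.22, 2.89 and 3.62%, with the 24 h library near the 16 h one and 20 cells at 8 h.

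**Figure D2:**
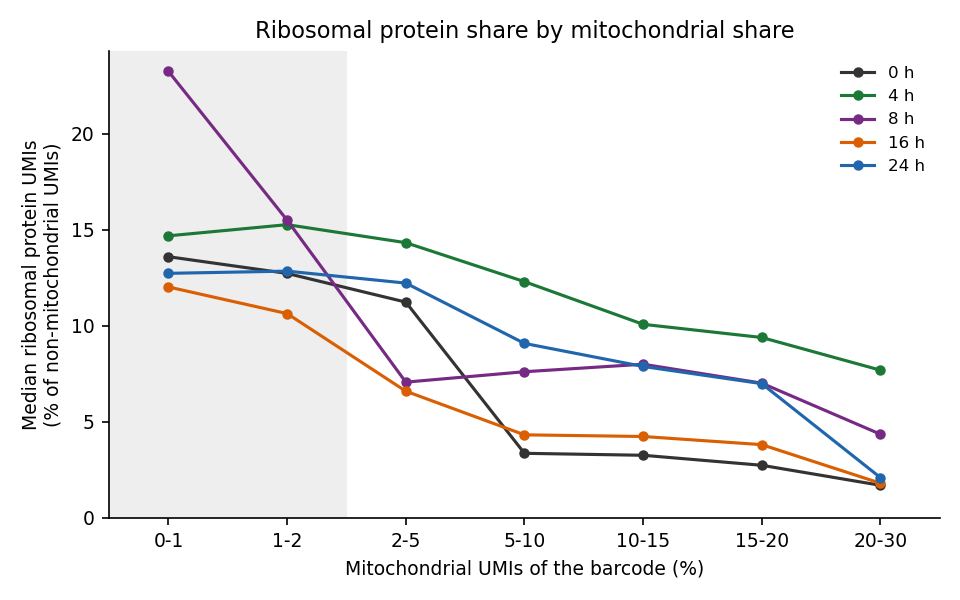
Median ribosomal protein share of barcodes (y axis, percent of non-mitochondrial UMIs) in windows of their mitochondrial UMI share (x axis, percent), 1 line per library. The grey band marks barcodes under 2%, which are outside the hepatocyte definition. The fed line drops from 11.2% in the 2 to 5% window to 3.36% in the 5 to 10% window, and the 4 h line stays highest from 2% upwards.

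Gene by gene, the higher share at 4, 8 and 24 h was spread over nearly all members as chosen. Of the 83 members 80 had a mean of at least 50 CPM over the 5 libraries. Rpl36al, outside the symbol rule, was at 474, 618, 493, 327 and 479 CPM at 0, 4, 8, 16 and 24 h. A gene was called where it differed at least 1.5-fold from fed. At 4 h 75 of the 80 were called higher and 1 lower, against 14.1% and 13.3% of all 2682 genes with that mean. At 8 h 70 were called higher and 0 lower, against 17.1% and 21% of all genes. At 16 h 11 were called higher and 1 lower, against 9.58% and 12.3%. At 24 h 61 were called higher and 1 lower, against 16.8% and 17.7%. The median member had log2 ratios to fed of 1.40, 1.29, 0.25 and 1.11 at the 4 times, whereas the median of all genes lay between -0.02 and 0.01. The counts changed with depth. At 8 and 24 h 23 and 25 members were called higher in cells of 1000 to 2000 UMIs, with 6 and 8 lower. In cells of 2000 to 4000 UMIs 74 and 75 were called higher, and in cells of 4000 to 8000 UMIs 69 and 39. The share of all genes in these windows was not worked out.

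The members also kept a common order over time. A set of 57 members was called higher than fed at 4, 8 and 24 h alike, against 8.35% of all genes. Another count took those at 16 h lower than at 4, 8 and 24 h: 70 of 80, against 35.6%. Those with all 3 of these libraries above both the fed and the 16 h one numbered 69, against 24.6%. The level was highest at 4 h in 41 members, at 8 h in 35, at 0 h in 2 and at 24 h in 2. It was lowest at 0 h in 64 members, at 16 h in 12, at 8 h in 3 and at 24 h in 1. The share of all genes was not worked out for these highest and lowest counts, so they only describe the members. Called higher at all 4 fasted times, against 2.31% of all genes, were 9 members: Rpl6, Rpl7, Rpl10a, Rpl22l1, Rpl30, Rps4x, Rps7, Rps15a and Rps27a. Between successive libraries, 9 members were at least 1.5-fold lower at 8 than at 4 h and 4 higher (9.02 and 4.4% of all genes). From 8 to 16 h the counts were 65 lower and 0 higher (21.3 and 23.7%), and from 16 to 24 h 51 higher and 0 lower (18.5 and 17.3%). These successive comparisons share libraries with those to fed and are no separate evidence.

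**Figure D3:**
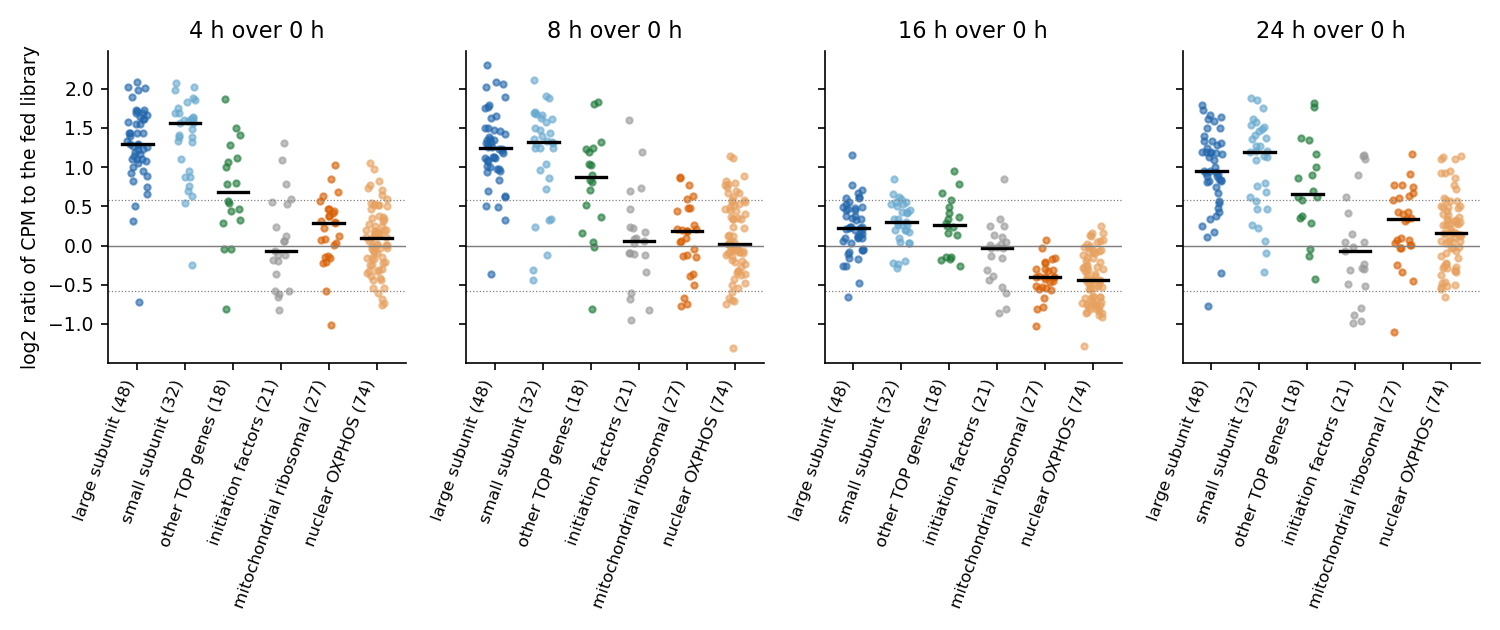
Log2 ratio of CPM to the fed library (y axis) for each gene of 6 lists (x axis, number of genes with a mean of at least 50 CPM in brackets), 1 panel per fasted library. Points are genes, bars list medians, and dotted lines the 1.5-fold limits. Most ribosomal protein genes of both subunits lie above the upper dotted line at 4, 8 and 24 h and inside the lines at 16 h, where the nuclear OXPHOS median is -0.44.

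The 2 subunits moved together. Large subunit genes gave 2.09, 5.02, 4.83, 2.37 and 3.85% of UMIs at 0, 4, 8, 16 and 24 h, and small subunit genes gave 1.56, 3.89, 3.35, 1.82 and 3.03%. The log2 ratio of large to small was 0.42, 0.37, 0.53, 0.38 and 0.35 in the same order. The 8 h library stood highest by more than its counting interval of 0.52 to 0.53. Genes of both subunits stepped down or up from 4 to 8 h. Of small subunit genes, Rps21 was at 1462 CPM at 4 h and 726 CPM at 8 h (log2 step -1.01), and Rps15a had a step of -0.87, Rps29 -0.86, Rps26 -0.75 and Rps27 -0.71. Of large subunit genes, Rpl36a had a step of -0.79, Rpl23 of -0.73 and Rpl39 of -0.60. The 4 members past 1.5-fold the other way were Rpl13a with a step of 0.68, Rpl41 of 0.62, Rps15, a small subunit gene, of 0.61 and Rpl5 of 0.61. These genes, apart from those that the naming rule took, were chosen after their values were seen.

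The proteins of the P-stalk, the arm of the large subunit that recruits the GTPase factors of elongation, had moderate ratios. Rplp0, its scaffold, was at 483, 1070, 1228, 404 and 936 CPM at 0, 4, 8, 16 and 24 h. It was lowest at 16 h and highest at 8 h. Its log2 ratio to fed was 1.15, 1.35, -0.26 and 0.95. Rplp1 and Rplp2, the acidic proteins that sit on Rplp0 as dimers, followed with log2 ratios of 0.88, 0.98, -0.05 and 0.37 (Rplp1) and of 0.95, 1.09, 0.11 and 0.55 (Rplp2). Rplp1 and Rplp2 were below the median member at each time, and Rplp0 was above it at 8 h only. Rplp2 made up 38.3 to 41.2% of the UMIs of that pair in the 5 libraries.

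Rpsa, a small subunit protein also known as a laminin receptor precursor, was at 620, 1328, 1679, 508 and 1081 CPM. Its 16 h level was below the fed one (log2 -0.29), and only Rpl7l1 and Rpl41 had lower ratios at that time. Rps6, the small subunit protein that S6 kinase phosphorylates downstream of mTORC1, was at 242, 631, 670, 277 and 532 CPM. It followed the median member, with log2 ratios of 1.38, 1.47, 0.19 and 1.14. Rps27a, made as a fusion of ubiquitin to a small subunit protein, was at 569, 2053, 1435, 900 and 1622 CPM, and all 4 fasted libraries were above the fed one by at least 1.5-fold.

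Rpl5 and Rpl11 bind 5S rRNA as a particle that can also hold Mdm2, the ubiquitin ligase of p53. Rpl5 was at 163, 338, 515, 231 and 312 CPM and peaked at 8 h, with a log2 ratio to fed of 1.66. Rpl11 was at 319, 1262, 1298, 405 and 995 CPM, with log2 ratios of 1.98, 2.02, 0.34 and 1.64. Its ratio was thus larger than that of its partner at 4, 8 and 24 h. Mdm2 itself stayed between 19.7 and 25.7 CPM. Of the 14 p53 targets listed, 2 passed the 50 CPM mean. Cdkn1a, a cell cycle inhibitor, was at 2.59, 79.2, 264, 1.73 and 7.34 CPM. Trp53inp1, a p53-induced nuclear protein, was at 57.1, 117, 104, 129 and 69.96 CPM. Cdkn1a passed the mean only through its 4 and 8 h levels, so nothing is read from its place in that list. The other 12 stayed under 50 CPM in every library. Btg2, an antiproliferative gene and the highest of these, was at 22.8, 46.1, 16.9, 34.3 and 23.2 CPM.

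Highest by level were 5 members: Rpl41, Rps29, Rps2, Rpl37a and Rps28. Counts of 3′ ends do not scale with transcript length, but processed pseudogenes nearly identical to many members may take or add reads, so levels of single genes are uncertain. Rpl41, a very short basic protein of the large subunit, was at 2544, 3167, 4878, 1829 and 1996 CPM. It was high at 8 h and below fed at 16 and 24 h (log2 -0.48 and -0.35). Rps29, a short zinc-binding protein of the small subunit head, was at 2034, 2960, 1632, 1732 and 1907 CPM. Its 4 h level was above fed, by 0.54 on the log2 scale. Its 24 h level was close to fed (log2 -0.09) and above it in 4 other settings. The largest of these was 0.30, with a profile of low-mitochondrial barcodes subtracted as free RNA. Rps2, which lines the mRNA entry channel, was at 743, 2648, 2785, 647 and 2216 CPM. Its levels fell into a low pair (0 and 16 h) and a high trio, and the ratio between 16 and 8 h (log2 -2.10) was the lowest of the family. Rpl37a and Rps28 had log2 ratios of 1.43 and 0.76 at 4 h and of 0.84 and 0.23 at 24 h. Without these 5 genes the summed share was 2.92, 7.61, 6.79, 3.55 and 5.98%, and the log2 ratio to fed at 24 h was 1.03.

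Among the largest ratios to fed were those of Rpl10, Rpl30, Rpl7a and Rps18. Rpl10 (gene model X:74270812-74273135, plus strand), a late-joining large subunit protein near the peptidyl transferase center, was at 216, 920, 1067, 303 and 747 CPM. Its log2 ratios were 2.09 (interval 2.05 to 2.12), 2.30, 0.48 and 1.79. Rps18, a protein of the small subunit head, was at 412, 1669, 1515, 509 and 1514 CPM, which gave the highest 24 h ratio of the family (log2 1.88). Rpl30 had a log2 ratio of 2.02 at 4 h and Rpl7a of 2.09 at 8 h. In these 4 genes the fed level was the lowest and the 16 h level the next lowest. With no lower mitochondrial limit the 16 h log2 ratios of Rpl10 and Rps18 were -0.022 and -0.14.

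**Figure D4:**
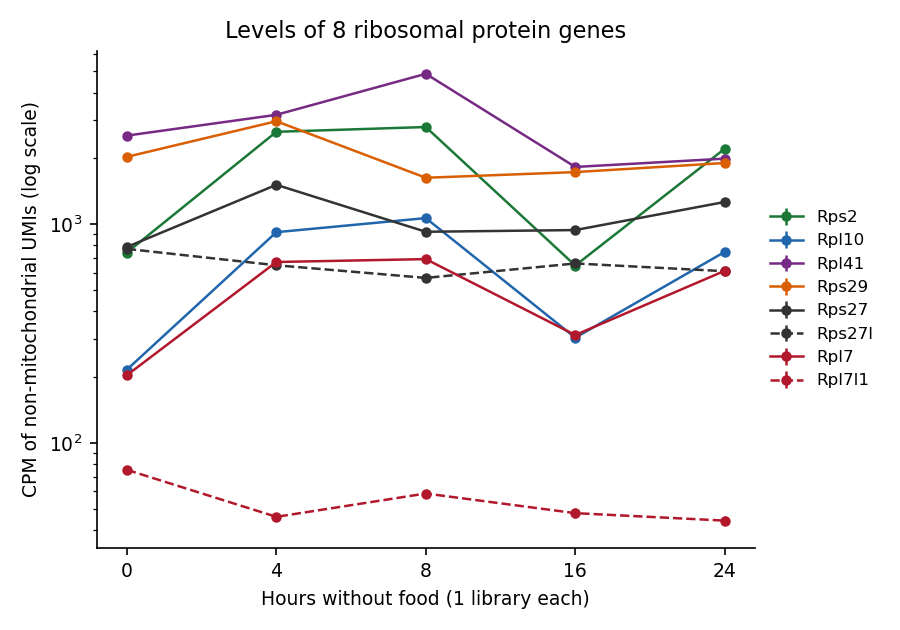
CPM of non-mitochondrial UMIs (y axis, log scale) of 8 ribosomal protein genes against hours without food (x axis, 1 library each, evenly spaced). Vertical bars are exact 95% Poisson intervals, mostly smaller than the points, and dashed lines are the paralogs Rps27l and Rpl7l1. Rpl10, Rps2 and Rpl7 are low at 0 and 16 h, whereas Rps27l and Rpl7l1 are highest in the fed library at 772 and 75.3 CPM.

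At 16 h, when the family as a whole was near its fed level, the highest ratios were those of Rpl22l1, Rps15a and Rpl10a. Rpl22l1 was at 125.4, 415, 387, 278 and 286 CPM, and its 16 h log2 ratio of 1.15 was the only one above 1 in the family. Its paralog Rpl22, which can be exchanged for it in the large subunit, was at 231, 584, 487, 319 and 507 CPM. Rpl22l1 accounted for 35.2, 41.6, 44.3, 46.6 and 36.0% of the UMIs of that pair. Rps15a was at 327, 982, 539, 588 and 713 CPM, with a 16 h log2 ratio of 0.85. Rpl10a, of the stalk that releases used tRNA, had log2 ratios of 2.01, 2.05, 0.77 and 1.72. Rpl23a, a protein at the rim of the peptide exit tunnel, was at 212, 354, 376, 337 and 228 CPM, so that its 24 h level was near fed (log2 0.11) while its 16 h ratio was 0.67.

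The paralogs Rps27l and Rpl7l1 were below fed in all 4 fasted libraries as summed. Rps27l (gene model chr9:66946086-66949516, plus strand), known as a p53-inducible paralog of Rps27, was at 772, 649, 568, 662 and 610 CPM. Its log2 ratios were -0.25, -0.44, -0.22 and -0.34, none past 1.5-fold. At 2 to 15% mitochondrial UMIs its 4 and 24 h ratios were 0.29 and 0.052, and with no lower mitochondrial limit its 24 h ratio was 0.030. Rps27, a zinc-binding protein of the small subunit, was at 787, 1515, 924, 941 and 1264 CPM. These fasted levels were above fed, but with no lower mitochondrial limit its 16 h log2 ratio was -0.037. The paralog thus made up 49.5% of the UMIs of the pair in the fed library and 29.997, 38.1, 41.3 and 32.5% at 4, 8, 16 and 24 h. Rpl7l1 (gene model chr17:46773907-46782672, minus strand), a paralog of Rpl7, was at 75.3, 45.9, 58.7, 47.7 and 44.1 CPM. Its log2 ratios were -0.71, -0.36, -0.66 and -0.77, and it was the 1 member called lower at 4, 16 and 24 h. Rpl7 itself was at 204, 672, 693, 311 and 612 CPM, with log2 ratios of 1.72, 1.76, 0.61 and 1.59.

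The members that departed most from the median member over the 5 libraries were Rpl7l1, Rps27l, Rps29, Rpl41 and Rpl23a. The 3 members under 50 CPM are paralogs used mainly in other tissues and were at or near 0. Rpl3l, a muscle paralog of Rpl3, had 0 to 3 UMIs per library. Rpl39l, a testis paralog of Rpl39, had 0 to 6 UMIs per library, and Rpl10l, a testis paralog of Rpl10, had 0 in all 5. No ratio is given for them. The X-linked partner genes Rpl10, Rpl39 and Rps4x were at 216, 909 and 276 CPM in the fed library, and the autosomal Rpl3 was at 158 CPM. Rps4x had log2 ratios of 1.88, 1.68, 0.59 and 1.48, and Rpl3 of 1.72, 1.79, 0.23 and 1.61. Rpl39 had lower ones, at 1.10, 0.50, 0.62 and 0.24.

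Lists of related genes were read beside the members by the same 50 CPM and 1.5-fold limits. Their counts stand beside the shares of all genes called higher (14.1, 17.1, 9.58 and 16.8% at 4, 8, 16 and 24 h) and lower (13.3, 21, 12.3 and 17.7%). Other genes known for TOP mRNAs, such as elongation factors and Rack1, had 18 of 19 above 50 CPM, with median log2 ratios of 0.68, 0.87, 0.27 and 0.66. Of these 9, 12, 4 and 11 (50, 66.7, 22.2 and 61.1%) were called higher and 1, 1, 0 and 0 lower. Fau, which encodes a ubiquitin-like fusion of a small subunit protein, was at 587, 2145, 2049, 756 and 2074 CPM. Pabpc1, the poly(A)-binding protein, was at 461, 262, 263, 416 and 344 CPM and thus lowest at 4 and 8 h. Initiation factors (21 of 30 above 50 CPM) had medians of -0.08, 0.05, -0.03 and -0.06, with 4, 4, 1 and 5 called higher and 3, 4, 3 and 4 lower. Eif3i, a subunit of the eIF3 complex, had a 24 h log2 ratio of 1.16, and Eif2s2, the beta subunit of eIF2, one of -0.99.

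Genes for making ribosomes were few at this depth: 4 of 38 biogenesis genes passed 50 CPM, with medians of -0.31, -0.05, -0.26 and -0.10. None of the 4 was called higher at any time. Nop10, a part of the pseudouridylation complex, had a 24 h log2 ratio of -0.73 and Polr1d, a subunit shared by RNA polymerases I and III, one of 0.54. Of the 19 regulators listed 6 passed, and 1, 1, 0 and 1 were called higher. That gene was Eif4ebp1, the translational repressor released by mTORC1 phosphorylation, at 48.8, 75.5, 85.6, 65.2 and 86.3 CPM. Larp1 was at 155, 147, 186, 176 and 141 CPM. Myc, a transcription factor that drives ribosome synthesis, stayed under the 50 CPM mean and was at 35.6, 13.4, 2.63, 2.74 and 3.49 CPM, highest in the fed library.

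Genes of the mitochondrial ribosome had lower median ratios than the members at each time. They (27 of 78 above 50 CPM) had median log2 ratios of 0.28, 0.18, -0.40 and 0.33, with 4, 5, 0 and 8 called higher and 1, 3, 4 and 1 lower. The higher calls at 4 and 8 h (14.8 and 18.5%) were thus near the share of all genes, and those at 24 h (29.6%) above it. Mrps24 had a 24 h log2 ratio of 1.16 and Mrpl38 one of -1.10. Nuclear OXPHOS genes, a list of similarly short and abundant mRNAs added after the data were seen, had 74 of 90 above 50 CPM and medians of 0.10, 0.02, -0.44 and 0.16. Of these 8, 12, 0 and 11 were called higher (10.8, 16.2, 0 and 14.9%), each under the share of all genes. Another 4, 6, 25 and 1 were called lower, and the 33.8% at 16 h was above the 12.3% of all genes. Both lists had, as the ribosomal proteins had, lower medians at 16 h than in the libraries on either side.

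Position along the lobule was approached through the axis from Cyp2f2, an enzyme of periportal hepatocytes, to Cyp2e1, an enzyme of pericentral ones. Cells were ranked in each library by the difference of the 2 standardized levels and divided into 3 equal parts, called the Cyp2e1 end, the middle and the Cyp2f2 end. This is a ranking of dissociated cells and not a measured place in tissue. In the fed library the ribosomal protein share was 4.35% at the Cyp2e1 end, 3.63% in the middle and 3.19% at the Cyp2f2 end. The 4 h library gave 9.61, 9.11 and 8.43% in that order and the 8 h library 9.13, 7.99 and 7.65%. The 16 h library gave 4.08, 4.40 and 4.06% and the 24 h library 8.43, 7.15 and 5.80%. The Cyp2f2 end was thus lowest in every library, but at 16 h both ends lay close together and under the middle one.

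The log2 ratio of the Cyp2f2 to the Cyp2e1 end was -0.45, -0.19, -0.26, -0.0063 and -0.54 from 0 to 24 h. In the fed library 79 of the 80 members were lower at the Cyp2f2 end, against 59.8% of all genes. At 4 and 8 h the counts were 77 and 78 (57.6 and 58.9% of all genes), and at 16 and 24 h 42 and 80 (67.9 and 37.8%). Lower in all 5 libraries were 41 members, against 20% of all genes. At 16 h the members' 42 of 80 lay under the background. The 16 h ratio changed sign with other cell limits or axis scores, reaching 0.045 with 8 portal and 8 central landmark genes. Median mitochondrial shares at the Cyp2e1 end were 10.5, 17.0, 9.74, 13.4 and 10.8% from 0 to 24 h, and at the Cyp2f2 end 12.4, 20.5, 10.01, 14.2 and 18.4%. Median UMIs per cell were 2904, 3029, 11064.5, 3878 and 2962 at the Cyp2e1 end and 5854, 18687, 15526, 4320 and 11215 at the Cyp2f2 end. Mitochondrial share and depth thus moved with the axis, most at 4 and 24 h. Among cells of 10 to 15% mitochondrial UMIs the ratio was -0.14 in the fed library and -0.09 at 24 h, where 24 of the members were then higher at the Cyp2f2 end. The share of all genes in that window was not worked out, so nothing is read from this count. In windows of 1000 to 2000, 2000 to 4000, 4000 to 8000 and 8000 to 16000 UMIs the ratio was -0.92, -0.76, -0.17 and -0.05 in the fed library. At 24 h it was -0.34, -0.80, -0.84 and -0.39 in these windows, so that the size of the ratio changed with depth in both libraries and its sign did not. The part of depth and mitochondrial share in the axis was not tested further.

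**Figure D5:**
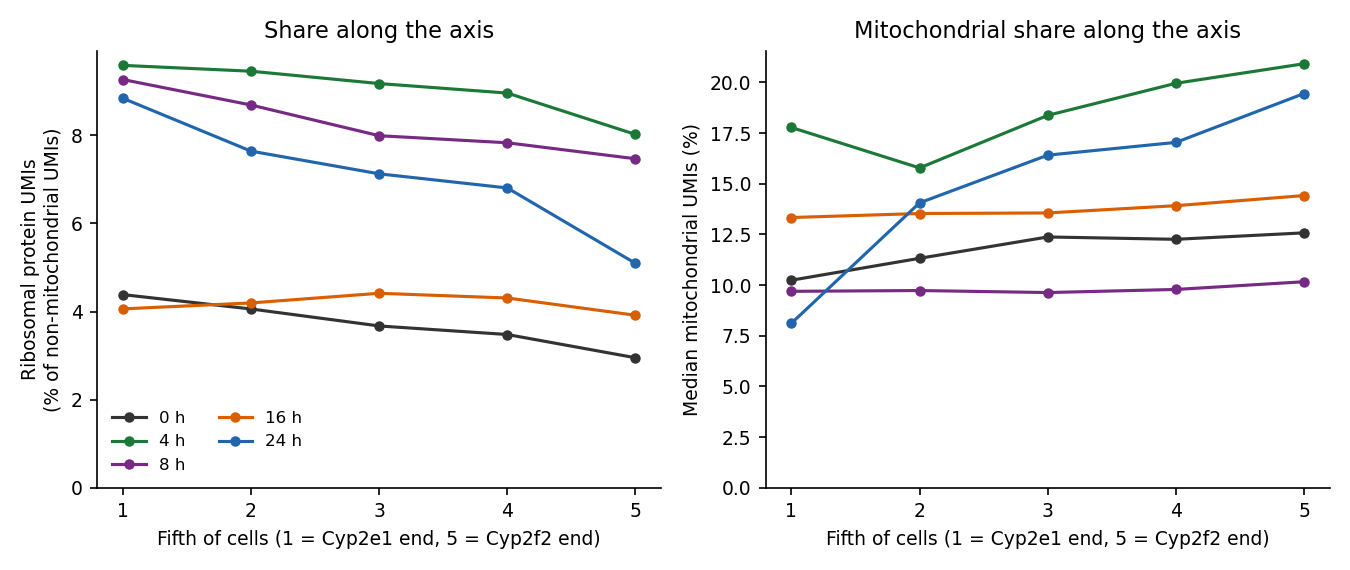
Left, ribosomal protein share (y axis, percent of non-mitochondrial UMIs) and right, median mitochondrial share (y axis, percent of UMIs), both over 5 equal parts of the cells from the Cyp2e1 to the Cyp2f2 end (x axis), 1 line per library. In the fed library the ribosomal protein share goes from 4.38 to 2.95%, and at 24 h from 8.84 to 5.09% while the mitochondrial share goes from 8.12 to 19.4%.

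Members differed in how steep they were along the axis. In the fed library Rpl35, a large subunit protein at the exit tunnel, had the lowest log2 ratio of the Cyp2f2 to the Cyp2e1 end, -1.03. Rps13 and Rps15a followed with -0.87 and -0.81. At the other end Rpl13a, which also takes part in translational repression outside the ribosome, was level (0.03), and Rpl4 and Rps6 stood at -0.04 and -0.07. At 16 h Rpl10 (0.31), Rpl21 (0.28) and Rps6 (0.23) were highest, and Rpl31 (-0.21), Rpl11 (-0.20) and Rps21 (-0.16) lowest. Rps6 was among the flattest members in the fed, 4 and 8 h libraries as well, with ratios of -0.07, -0.01 and -0.03, but stood at -0.47 at 24 h. Rpl35, the steepest in fed cells, was at -0.20, -0.25, 0.13 and -0.52 in the fasted libraries.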

How the data were processed

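UMI counts per gene and barcode were deposited by the authors without normalization, written by Cell Ranger 6.0.1 with build mm10 per the submitters' processing notes. The matrix held 32285 genes and 50000 barcodes in 5 libraries, and 0 other sample columns were left unused. Cells with at least 1000 UMIs, 500 genes and 2 to 30% UMIs of the 13 mitochondrial genes were summed per library and scaled to CPM of non-mitochondrial UMIs. No doublet caller was run, and no correction for free RNA was made in the values as reported. An alternative setting subtracted the profile of barcodes under 1% mitochondrial UMIs as free RNA. Whether those barcodes hold free RNA was not tested. Shares carry exact Clopper-Pearson intervals, CPM exact Poisson intervals and ratios exact conditional binomial intervals, all at 95% and for counting error only, since UMIs of 1 library share its animals and preparation. Genes entered counts with a mean of at least 50 CPM over the libraries, and a call meant at least 1.5-fold. With 1 library per time no test across animals was made. The ratio calculation was tested on simulated data.

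For the axis, log(1 + level per 10000 UMIs) of Cyp2f2 and of Cyp2e1 were standardized within a library and subtracted. Gene models came from GENCODE (mm10 coordinates) and promoter windows from RefSeq (GRCm38.p6). Protein sequences were not used here. Members and lists were chosen with earlier results of these data known. Named members were the 5 highest by mean CPM, the 3 highest and 3 lowest ratios to fed at each time, the 5 that departed most from the median member, the 3 steepest each way along the axis in the fed and 16 h libraries, paralog pairs, genes with a set role, and members under 50 CPM. In other lists the highest and lowest gene at 24 h were named, and further genes named there were chosen after their values were seen. Values of some genes that the rule takes are not reported here. Alternatives covered cell limits, denominators, scaling, thinning to 1000 UMIs, gene filters, call limits and axis scores. Calculations used scipy 1.17.1 and numpy 2.4.6 under Python 3.11.15, tables pandas 2.3.3, and plots matplotlib 3.10.9.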

Additional observations from a re-analysis of the deposited data

Results flagged for a closer look

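The summed ribosomal protein share moved in opposite directions at the ends of the axis between the fed and 16 h libraries. In the 1 of 3 equal parts of cells at the Cyp2f2 end the log2 ratio of 16 h to fed was 0.35 (interval 0.34 to 0.36), and at the Cyp2e1 end it was -0.093 (interval -0.099 to -0.087). With at least 3000 UMIs per cell the Cyp2f2 and Cyp2e1 ends had 16 h ratios of 0.44 and 0.30, in cells of 4000 to 8000 UMIs 0.50 and 0.34, at 5 to 30% mitochondrial UMIs 0.37 and 0.15, and at 10 to 15% 0.39 and 0.26. In cells of 2000 to 4000 UMIs they were 0.86 and 0.098. Both ends were thus above fed in these 5 settings. In cells of 1000 to 2000 UMIs both were below it, at -0.88 and -1.51. The opposite directions remained in 3 settings, at 0.31 and -0.77 with no lower mitochondrial limit, 0.38 and -0.094 at 2 to 15% mitochondrial UMIs, and 0.35 and -0.036 with a gate on markers. At 4, 8 and 24 h both ends were above fed in the cells as defined. With 1 library per time the difference between the ends was not tested.

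Barcodes under 2% mitochondrial UMIs, which were outside the hepatocyte definition, had a higher share of ribosomal protein UMIs than the hepatocytes of their library. Their share was 12.7% in the fed library (2172 barcodes), 14.4% at 4 h (5345 barcodes) and 20.4% at 8 h (576 barcodes), so that the 4 and 8 h values were above fed. At 16 h it was 11.1% (234 barcodes) and at 24 h 12.4% (5400 barcodes), both under the fed value. Their median UMIs lay between 1144 and 2640, and hepatocyte markers took 3.33 to 5.56% of their UMIs. What these barcodes hold was not tested.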

How the results depend on the processing

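No paired analysis was possible because each time point was 1 library. Of 27 alternative settings, 5 windows of depth and mitochondrial share were added after the data were seen. Ratios and medians were read by their sign and their side of the 1.5-fold limit, counts within 1.5 times, and shares and subunit ratios by their counting interval, which is so narrow at this depth that most settings moved them. At 4 and 8 h the summed and the median ratio to fed were above fed in all settings run, with summed log2 ratios of 0.65 to 1.67 and 0.18 to 1.41. They were past 1.5-fold in all of them at 4 h, and at 8 h in all but cells of 1000 to 2000 UMIs. The step from 8 to 16 h stayed negative, at -1.56 to -0.62. The 16 h ratio and axis value changed sign. The 24 h ratio dropped under the limit in cells of 1000 to 2000 and of 4000 to 8000 UMIs, and the step from 16 to 24 h in the latter. The cause was not tested. Under TMM and median-of-ratios scaling the median log2 ratio of all genes to fed lay at 0.031 to 0.19, against -0.02 to 0.01 as reported. Of 1489 values of named members under the alternatives, 1381 kept their side of the limit, 23 dropped under it, 60 passed it and 25 changed sign. Those 25 fell on 16 pairs of a member and a time, 0 of them called on either side. They include, at 16 h with no lower mitochondrial limit, Rpl11 at -0.052, Rpl3 at -0.00029, Rplp2 at -0.18 and Rps28 at -0.24. Rpl23a at 24 h was at -0.024 there. Rplp1 at 16 h reached 0.12 and Rpl21 0.095 with at least 3000 UMIs, Rpl13a at 16 h was at 0.033 with TMM scaling, and Rpl21 at 8 h at -0.34 with free RNA subtracted. Only 1 library of each time limits every comparison, and the rest of the values that moved follow by setting. Member counts there stand without the share of all genes under the same setting, which was not worked out. The shares of all genes given above belong to the values as reported, so nothing is read from these counts against a background.

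With no lower mitochondrial limit the share was 4.52, 9.996, 8.70, 4.27 and 8.71% at 0, 4, 8, 16 and 24 h, and the large to small ratio was 0.41, 0.52 and 0.34 at 0, 8 and 24 h. The summed ratio to fed was -0.082 (log2) at 16 h, and the median member ratio was -0.054 at 16 h. The axis ratio was -1.16, -0.61 and -0.75 at 0, 8 and 24 h, and members called higher numbered 1 at 16 h. Members called lower numbered 0, 1, 2 and 0 at 4, 8, 16 and 24 h, and members higher at the Cyp2f2 end numbered 0, 1 and 16 at 0, 4 and 16 h. Those lower there numbered 64 at 16 h. At 2 to 15% mitochondrial UMIs the share was 3.78, 10.4, 8.19, 4.38 and 8.63% at 0, 4, 8, 16 and 24 h, and the large to small ratio was 0.38 at 4 h. Members called lower numbered 0 at 4 h, and members higher at the Cyp2f2 end numbered 4 at 24 h. At 5 to 30% mitochondrial UMIs the share was 3.46, 8.84, 4.18 and 6.58% at 0, 4, 16 and 24 h, and the large to small ratio was 0.43 and 0.35 at 0 and 24 h. The axis ratio was 0.0037 at 16 h, and members called higher numbered 21 at 16 h. Members higher at the Cyp2f2 end numbered 5 and 13 at 0 and 4 h. With at least 3000 UMIs per cell the share was 3.44, 8.83, 4.40 and 6.68% at 0, 4, 16 and 24 h, and the large to small ratio was 0.43 and 0.35 at 0 and 24 h. Members called higher numbered 24 at 16 h, and members higher at the Cyp2f2 end numbered 4 and 9 at 0 and 4 h. With a gate on markers the share was 3.60 and 6.86% at 0 and 24 h. As a mean over cells the share was 3.96, 8.79, 7.90, 3.91 and 7.02% at 0, 4, 8, 16 and 24 h, and the summed ratio to fed was -0.017 (log2) at 16 h. In cells thinned to 1000 UMIs the share was 3.96, 8.79, 7.93, 3.92 and 7.03% at 0, 4, 8, 16 and 24 h, and the summed ratio to fed was -0.014 (log2) at 16 h. Without the 5 most abundant members the share was 2.92, 7.61, 6.79, 3.55 and 5.98% at 0, 4, 8, 16 and 24 h. Over all UMIs, mitochondrial ones included, the share was 3.21, 7.17, 7.38, 3.61 and 5.75% at 0, 4, 8, 16 and 24 h, and the log2 step was 0.040 from 4 to 8 h. Members called higher numbered 7 at 16 h. With genes over 1% of UMIs out of the denominator the share was 4.47, 10.5, 9.77, 5.08 and 8.33% at 0, 4, 8, 16 and 24 h. With 10% of UMIs subtracted as free RNA, by the profile of barcodes under 1% mitochondrial UMIs, the share was 2.61, 8.29, 6.66, 3.37 and 6.26% at 0, 4, 8, 16 and 24 h. Members called higher numbered 31 at 16 h there. In cells of 1000 to 2000 UMIs the share was 6.89, 10.8, 7.81, 2.66 and 7.60% at 0, 4, 8, 16 and 24 h, and the large to small ratio was 0.35, 0.35, 0.43, 0.38 and 0.32 at 0, 4, 8, 16 and 24 h. The summed ratio to fed was 0.18, -1.37 and 0.14 (log2) at 8, 16 and 24 h, and the median member ratio was 0.29, -1.30 and 0.29 at 8, 16 and 24 h. The axis ratio was -0.92 and -0.96 at 0 and 8 h, and members called higher numbered 23, 0 and 25 at 8, 16 and 24 h. Members called lower numbered 0, 6, 73 and 8 at 4, 8, 16 and 24 h, and members higher at the Cyp2f2 end numbered 0, 7 and 8 at 0, 16 and 24 h. Those lower there numbered 73 at 16 h. In cells of 2000 to 4000 UMIs the share was 2.57, 7.08, 6.82, 3.75 and 8.45% at 0, 4, 8, 16 and 24 h, and the large to small ratio was 0.41, 0.37, 0.49, 0.40 and 0.32 at 0, 4, 8, 16 and 24 h. The axis ratio was -0.76, -0.66, 0.0015 and -0.80 at 0, 4, 16 and 24 h, and members called higher numbered 34 at 16 h. Members called lower numbered 0, 0 and 0 at 4, 16 and 24 h, and members higher at the Cyp2f2 end numbered 0, 0 and 10 at 0, 4 and 8 h. In cells of 4000 to 8000 UMIs the share was 3.47, 5.71, 7.05, 4.60 and 4.61% at 0, 4, 8, 16 and 24 h, and the large to small ratio was 0.44, 0.42, 0.55, 0.38 and 0.37 at 0, 4, 8, 16 and 24 h. The summed ratio to fed was 0.41 (log2) at 24 h, and the median member ratio was 0.55 at 24 h. The log2 step was 0.30 and 0.0046 from 4 to 8 and 16 to 24 h, and the axis ratio was -0.84 at 24 h. Members called higher numbered 34 and 39 at 16 and 24 h, and members called lower numbered 2 at 24 h. Members higher at the Cyp2f2 end numbered 5 and 20 at 0 and 8 h. In cells of 8000 to 16000 UMIs the share was 3.99, 8.09, 7.93 and 6.65% at 0, 4, 8 and 24 h, and the large to small ratio was 0.41, 0.39, 0.55 and 0.36 at 0, 4, 8 and 24 h. Members called lower numbered 2 and 2 at 8 and 24 h, and members higher at the Cyp2f2 end numbered 18, 5 and 1 at 0, 4 and 8 h. In cells of 10 to 15% mitochondrial UMIs the share was 3.45, 9.75, 8.32, 4.34 and 7.84% at 0, 4, 8, 16 and 24 h, and the large to small ratio was 0.43, 0.39 and 0.36 at 0, 4 and 24 h. Members called higher numbered 23 at 16 h, and members higher at the Cyp2f2 end numbered 7, 1 and 24 at 0, 8 and 24 h. With TMM scaling members called higher numbered 18 at 16 h, and members called lower numbered 0 and 0 at 4 and 16 h. With median-of-ratios scaling members called lower numbered 0 at 4 h. With no filter on low values members called lower numbered 2 and 2 at 4 and 16 h. With a 2-fold call members called higher numbered 1 at 16 h, and members called lower numbered 0, 0 and 0 at 4, 16 and 24 h. With the lower fold limit for a call members called higher numbered 35 at 16 h, and members called lower numbered 2, 2 and 3 at 8, 16 and 24 h. With the axis from 8 portal and 8 central landmarks the axis ratio was 0.045 at 16 h, and members higher at the Cyp2f2 end numbered 4, 15, 0 and 2 at 0, 4, 8 and 24 h. With the axis scored on 1000 UMIs per cell the axis ratio was 0.0037 at 16 h, and members higher at the Cyp2f2 end numbered 2 and 7 at 0 and 4 h. In cells with at least 3 UMIs of both axis genes the axis ratio was 0.00033 at 16 h. With 4 instead of 3 parts of the axis the axis ratio was -0.68 at 24 h.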
